A study of Mus musculus with 2 samples.

Results

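Scavenger receptors and C-type lectins are surface proteins with which myeloid cells bind lipids, sugars, debris and microbes. Here 9 genes of this kind were followed in CD45+ cells of the mouse thalamus: the scavenger receptors Msr1, Marco, Mrc1, Cd163 and Stab1 and the C-type lectins Clec7a, Clec4d, Clec4e and Clec4n. They were taken by symbol from the 33670 gene symbols of the feature lists, and all 9 were present. The samples were 2 single-cell RNA-seq libraries from C57B6/J mice (as labelled; C57BL/6J in the methods) of 12 weeks, all with cortical ablation injury (CAI), a surgical lesion of the cortex after which the connected thalamus degenerates. A control antibody (control Ab, normal rat IgG) or an anti-CD9 antibody (anti-CD9 Ab, clone KMC8), each at 1.0 µg/µl, was injected into the thalamus through a cannula from day 7 to day 19 after the injury, and cells were collected on day 21. CD9 is a tetraspanin found on many leukocytes, so the antibody can bind cells of several types. Both groups therefore carried the injury, the cannula and repeated injections, and neither an uninjured nor an uninjected thalamus is part of the comparison. There was 1 library per antibody, and the methods describe thalamic libraries as pools of 4 mice. The differences below have no replicate check, intervals cover counting error only, and a difference between the antibodies and a difference between the 2 libraries cannot be told apart.

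Scavenger receptors take up modified lipoproteins, haemoglobin complexes and cell debris. Msr1 (macrophage scavenger receptor of class A) and Marco bind modified lipoproteins and bacteria, Mrc1 (CD206) binds mannose and is a marker of border-associated macrophages in the brain, Cd163 takes up haemoglobin bound to haptoglobin, and Stab1 (stabilin-1) clears modified lipoproteins and extracellular debris. The lectins bind sugars or glycolipids: Clec7a (dectin-1) binds β-glucan and is raised in microglia around damage, Clec4e (Mincle) binds glycolipids and a protein released by dying cells, Clec4d (MCL) pairs with Clec4e, and Clec4n (dectin-2) binds mannans. Clec4d, Clec4e and Clec4n signal through an Fc receptor chain, Clec7a through its own tail, and all reach the kinase Syk and the adaptor Card9.

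In the RefSeq gene order, Clec4n, Clec4d and Clec4e were neighbours, with 0 protein-coding genes between Clec4n and Clec4d and 0 between Clec4d and Clec4e, while 106 lay between Clec4e and Clec7a. The promoters of Clec4d and Clec4e, each found in most neutrophil-like cells with anti-CD9 Ab, and of Clec7a, a lectin that was lower with anti-CD9 Ab in microglia (by under 2-fold) and macrophages, are shown from 250 bases before to 50 bases after the annotated start (RefSeq, build GRCm38.p6). They are chr6:123261857-123262156 on the plus strand for Clec4d, chr6:123289822-123290121 on the minus strand for Clec4e and chr6:129472730-129473029 on the minus strand for the first of 2 Clec7a entries. Capitals mark letters searched on both strands: GAGGAA, the core bound by the myeloid factor PU.1, and TTNNGCAA, a C/EBP-type site. Each sequence is written 5′ to 3′ along the gene.
Clec4d: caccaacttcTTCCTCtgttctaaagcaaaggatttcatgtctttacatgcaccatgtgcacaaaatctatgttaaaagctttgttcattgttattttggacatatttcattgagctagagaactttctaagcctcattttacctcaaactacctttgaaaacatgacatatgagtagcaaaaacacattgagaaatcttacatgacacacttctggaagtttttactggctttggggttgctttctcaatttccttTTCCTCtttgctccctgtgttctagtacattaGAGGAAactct
Clec4e: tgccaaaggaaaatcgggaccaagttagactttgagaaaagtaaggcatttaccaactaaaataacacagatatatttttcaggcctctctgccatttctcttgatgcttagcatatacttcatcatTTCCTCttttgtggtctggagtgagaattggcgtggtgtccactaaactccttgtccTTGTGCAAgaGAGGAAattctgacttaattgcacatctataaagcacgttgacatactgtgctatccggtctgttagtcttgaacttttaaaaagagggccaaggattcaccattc
Clec7a: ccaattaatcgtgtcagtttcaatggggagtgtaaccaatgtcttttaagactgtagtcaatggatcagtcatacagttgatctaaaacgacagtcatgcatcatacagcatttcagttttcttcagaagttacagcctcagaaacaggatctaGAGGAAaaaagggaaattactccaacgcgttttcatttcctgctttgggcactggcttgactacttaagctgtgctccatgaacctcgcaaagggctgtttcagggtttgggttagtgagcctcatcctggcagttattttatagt
GAGGAA was found 3 times in the Clec4d window, 2 times in that of Clec4e and 1 time in that of Clec7a, and it occurs in 28.3% of 32851 promoter windows of this length. TTNNGCAA, present in 10.8% of all windows, was found in the Clec4e window alone among these 3. The AP-1 letters TGANTCA, present in 7.81% of all windows, were found in none of the 3. These are letter matches, not measured binding. Msr1 and Clec4n had no entry in the promoter table.

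The control Ab library held 12245 barcodes and 38042608 unique molecular identifiers (UMIs, 1 per captured transcript), and the anti-CD9 Ab library 15173 barcodes and 40825201 UMIs. After the study's limits on genes and mitochondrial UMIs, 7467 cells (61.0%) and 9162 cells (60.4%) were kept, with medians of 1880 and 1419 UMIs. The libraries shared 18 barcodes among the kept cells. Cell types were rebuilt by clustering, since no cell annotation was used here, and are called "-like" after their markers. The control Ab library held 1875 microglia-like cells and the anti-CD9 Ab library 804. In the same order, they held 216 and 1277 monocyte/macrophage-like cells, 64 and 2697 neutrophil-like cells, and 114 and 351 dendritic cell-like cells. Each type held UMIs of all its own markers in both libraries, except for 1 of 15 monocyte/macrophage markers with control Ab. In CPM, the UMIs of a gene scaled to all UMIs of the cell type in that library, the 12 microglia markers summed in microglia-like cells to 14763 for control Ab and 9304 for anti-CD9 Ab. Neutrophil markers were also present outside neutrophils: their 14 genes summed to 524 CPM in control Ab microglia-like cells and 1191 with anti-CD9 Ab, to 587 and 847 in monocyte/macrophage-like cells, and to 96.3 and 784 in dendritic cell-like cells. In monocyte/macrophage-like cells the microglia markers summed to 3984 and 873 CPM and the 10 T cell markers to 378 and 117. The part of these shifts in the receptor ratios of that cell type was not tested. Transcripts of Cd9 itself were lower with anti-CD9 Ab in microglia-like (4070 and 1803 CPM), monocyte/macrophage-like (4124 and 393) and dendritic cell-like cells (491 and 280), but not in neutrophil-like cells (2154 and 2391, log2 ratio 0.15, -0.08 to 0.38). Cd9 was also lower in T, NK, B, plasma, astrocyte-like and oligodendrocyte-like cells, so the fall was not particular to myeloid types. Its log2 ratio there ranged from -0.45 in NK cell-like to -1.72 in astrocyte-like cells.

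A gene was compared where both libraries together held at least 50 of its UMIs in the cell type, and was counted as different at a ratio of 2-fold or more. In microglia-like cells 7 of the 9 receptors were compared, and 5 were 2-fold higher with anti-CD9 Ab (Msr1, Mrc1, Clec4d, Clec4e and Clec4n) against 3.31% of the 11075 genes compared. None was 2-fold lower, against 4.4% of genes. In monocyte/macrophage-like cells 5 of 7 were higher (Msr1, Mrc1, Stab1, Clec4d and Clec4e) against 8.04% of 9141 genes, and Clec7a alone was lower, against 6.31%. In neutrophil-like cells 3 of 4 were higher (Clec4d, Clec4e and Clec4n) against 13.6% of 5400 genes, and none was lower, against 19.8%. In dendritic cell-like cells all 4 compared (Clec7a, Clec4d, Clec4e and Clec4n) were higher against 7.36% of 5913 genes, and none was lower, against 3.72%. In neutrophil-like and dendritic cell-like cells no compared receptor had more than 44 control Ab UMIs, so each passed the minimum only through the anti-CD9 Ab library. Mrc1 did so in monocyte/macrophage-like cells (4 and 128 UMIs). Clec4d and Clec4e had 0 control Ab UMIs in dendritic cell-like cells and could be counted only as higher. These counts are thus shaped by the filter and are not read as support. The median log2 ratio over the compared receptors was 2.02 in microglia-like, 1.89 in monocyte/macrophage-like, 1.66 in neutrophil-like and 2.69 in dendritic cell-like cells, beside medians over all genes of 0.02, -0.02, -0.12 and -0.03. The dendritic median takes Clec4d and Clec4e at lower bounds (3.45 and 3.39), with their 0 control Ab UMIs set to 3. It is therefore not a median of measured ratios alone. The receptors were chosen with earlier results of these data known, so these counts describe the list and are no support for a rule about receptors in general. As the following values show, the microglial and dendritic counts rest in part on cells predicted to be doublets.

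**Figure D1:**
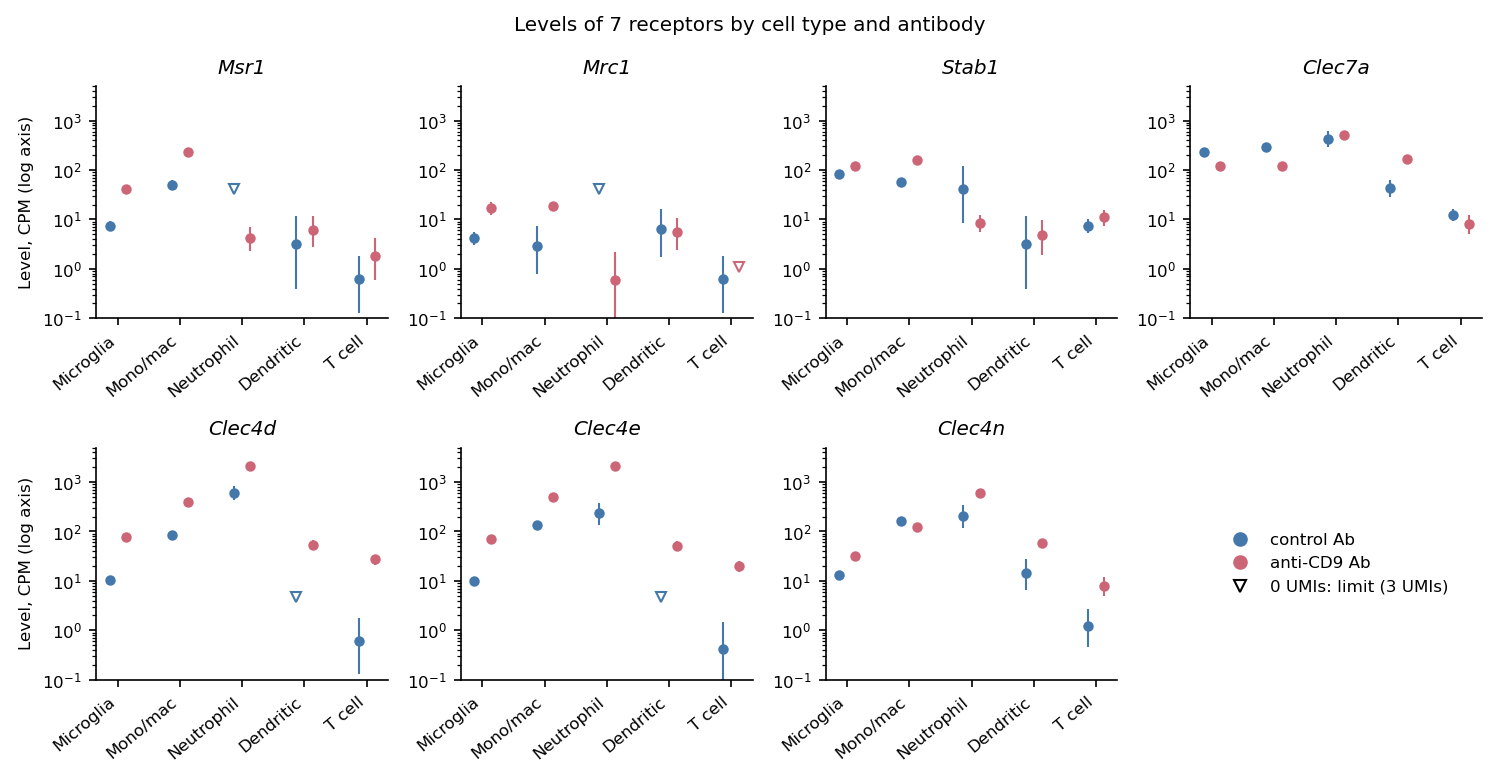
Level of 7 receptors in CPM (log axis) in 5 cell types, blue for control Ab and red for anti-CD9 Ab, with exact Poisson 95% intervals; open triangles mark the limit of 3 UMIs where a library held 0. Msr1 is highest in monocyte/macrophage-like cells and Clec4d in neutrophil-like cells with both antibodies, and Clec7a is lower with anti-CD9 Ab in microglia-like and monocyte/macrophage-like cells but not in neutrophil-like or dendritic cell-like cells. For Msr1 with control Ab, the neutrophil-like limit lies within the monocyte/macrophage-like interval.

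Msr1 was more than 2-fold higher with anti-CD9 Ab in both microglia and macrophages, with or without predicted doublets. In monocyte/macrophage-like cells it measured 49.9 CPM with control Ab (70 UMIs) and 228 with anti-CD9 Ab (1557 UMIs), a log2 ratio of 2.19 with a counting interval from 1.85 to 2.54. In microglia-like cells, where the level was lower, it measured 7.45 (78 UMIs) and 40.4 (119 UMIs), a log2 ratio of 2.44 (2.03 to 2.85). Monocyte/macrophage-like cells ranked first and microglia-like cells next in both libraries. The intervals of these 2 levels did not overlap in either library, while with anti-CD9 Ab the microglia-like interval overlapped those of astrocyte-like and oligodendrocyte-like cells, which held 0 Msr1 UMIs but few UMIs in all. The 2 libraries held 0 and 14 Msr1 UMIs in neutrophil-like cells, and T cell-like cells, which should lack the gene, held 3 and 5. Plasma cell-like cells held 0 and 12 (8.18 CPM with anti-CD9 Ab). With control Ab, the interval of the neutrophil-like 0 reached 50.9 CPM, within that of monocyte/macrophage-like cells (38.9 to 63.0). The first rank with control Ab is thus not settled against neutrophil-like cells. The share of cells with an Msr1 UMI, after each cell was thinned to 1000 UMIs so that depth is equal, was 5.14% (exact binomial 95% interval 2.59 to 9.01) and 18.8% (16.7 to 21.1) in monocyte/macrophage-like cells. It was 0.382% (0.154 to 0.785) and 2.53% (1.56 to 3.89) in microglia-like cells, beside 0.122% and 0% (0 of 907 cells, where a limit of 3 cells is 0.331%) in T cell-like cells. Without thinning the shares were 18.1% and 50.7% in monocyte/macrophage-like cells, 3.41% and 8.08% in microglia-like cells and 0.107% and 0.407% in T cell-like cells.

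The Msr1 difference was present within clusters of the integrated libraries. Microglia-like cells formed a cluster led by Siglech and P2ry12, genes of resting microglia, and a cluster led by Lpl, Spp1 and Cst7, genes of microglia responding to damage. Msr1 measured 5.74 and 23.7 CPM in the first (log2 ratio 2.04, interval 1.32 to 2.77) and 8.59 and 65.8 in the second (2.94, 2.43 to 3.44). Without integration the split differed: a microglia-like cluster led by Ccl12 and Cxcl13 held 143 control Ab cells and 675 with anti-CD9 Ab. The Siglech-led cluster then held 886 and 79 and the Lpl-led one 978 and 81. The clusters above thus depend on integration, and whether they pair cells of the same state was not tested. The Siglech-led cluster is called resting below after its leading genes alone. Monocyte/macrophage-like cells were split into 6 subclusters, and their make-up differed between the libraries. The Saa3-led, inflammatory-like subcluster M0 held 8 control Ab cells and 427 with anti-CD9 Ab. The Nav3-led subcluster M1, which had none of the subcluster markers up and the microglial genes P2ry12, Gpr34 and Cx3cr1 among its leading genes, kept no name and held 57 and 304, the Spp1- and Gpnmb-led, lipid-handling-like M2 held 103 and 164, and the monocyte-like M3, with Ccr2, held 26 and 189. Subcluster M4, monocyte-like but with S100a8 and S100a9 among its leading genes, held 1 control Ab cell and 157, and M5, with T cell genes and 94.7% predicted doublets, held 21 and 36. Predicted doublets were 0% and 26.7% of the M0 cells and 29.8% and 11.5% of the M1 cells. In M2 they were 0.97% and 18.9%, and in M3 3.85% and 12.7%. Ratios within subclusters were not recomputed without predicted doublets. The Msr1 log2 ratio was 1.48 (0.87 to 2.08) in M1, 1.64 (1.01 to 2.26) in M2 and 1.64 (0.68 to 2.61) in M3. In M0, with 6 control UMIs, it was 0.96 and the interval from -0.20 to 2.12 includes no difference. With anti-CD9 Ab the Msr1 level was 302 CPM in M0 and 125 in M2. The part of the larger number of M0 cells in the difference over all monocyte/macrophage-like cells was not tested. With M1 left out, an alternative chosen after seeing the data, the ratios over all other monocyte/macrophage-like cells were 2.39 for Msr1, 1.50 for Stab1 and -1.26 for Clec7a, and the same 6 receptors were past 2-fold. A small unnamed cluster of cycling cells (128 and 91 cells) gave a log2 ratio of 2.83 (1.61 to 4.05) from 7 and 23 UMIs.

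Of the 3 scavenger receptors of the list compared in microglia, Stab1 had the smallest ratio. It measured 82.1 CPM with control Ab (859 UMIs) and 118 with anti-CD9 Ab (349 UMIs) in microglia-like cells, a log2 ratio of 0.53 (0.35 to 0.71) that stayed under 2-fold. In monocyte/macrophage-like cells it measured 56.3 (79 UMIs) and 158 (1077 UMIs), a log2 ratio of 1.49 (1.16 to 1.81). The order of these 2 types thus differed: microglia-like cells were above monocyte/macrophage-like cells with control Ab and below them with anti-CD9 Ab, with intervals that did not overlap in either library. With control Ab, the wide interval of neutrophil-like cells (3 UMIs) covered both. The Stab1 ratio spanned a wider range over the subclusters than that of Msr1. It was 2.85 (2.26 to 3.44) in lipid-handling-like M2, where the level was 40.3 and 290 CPM, and 1.68 (1.19 to 2.16) in M1. It was 0.34 (-0.88 to 1.56) in M3 and -0.63 (-1.80 to 0.54) in M0, where the intervals include no difference. In microglia the resting cluster gave 0.16 (-0.08 to 0.40) and the Lpl-led cluster 0.87 (0.60 to 1.14). Thinned shares of Stab1-positive cells were 8.45% and 9.76% in microglia-like cells, with overlapping intervals, and 3.74% (1.63 to 7.23) and 12.2% (10.4 to 14.1) in monocyte/macrophage-like cells, beside 0.652% and 0.992% in T cell-like cells. The unthinned values were 29.1% and 31.8%, 23.6% and 42.5%, and 1.18% and 2.65%.

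Mrc1, Marco and Cd163, the other markers of tissue macrophages in the list, had few UMIs. Mrc1 measured 2.85 CPM with control Ab (4 UMIs) and 18.7 with anti-CD9 Ab (128 UMIs) in monocyte/macrophage-like cells, a log2 ratio of 2.72 with a wide interval from 1.28 to 4.15. It was 1.16 with equal weight for each cell and 4.06 without integration of the libraries. Of these 128 UMIs, 63 lay in subcluster M1. In microglia-like cells Mrc1 measured 4.11 and 16.6 (43 and 49 UMIs), but 34 of the 49 UMIs with anti-CD9 Ab came from 1 cell that was a predicted doublet. With predicted doublets left out, 23 and 4 Mrc1 UMIs remained, too few to compare. Marco had 13 and 41 UMIs over all kept cells, of which 10 of the 41 lay in 1 cell, and Cd163 had 13 and 6, of which 8 of the control Ab UMIs lay in astrocyte-like cells. Neither had enough UMIs for a comparison in any of the 4 myeloid types.

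**Figure D2:**
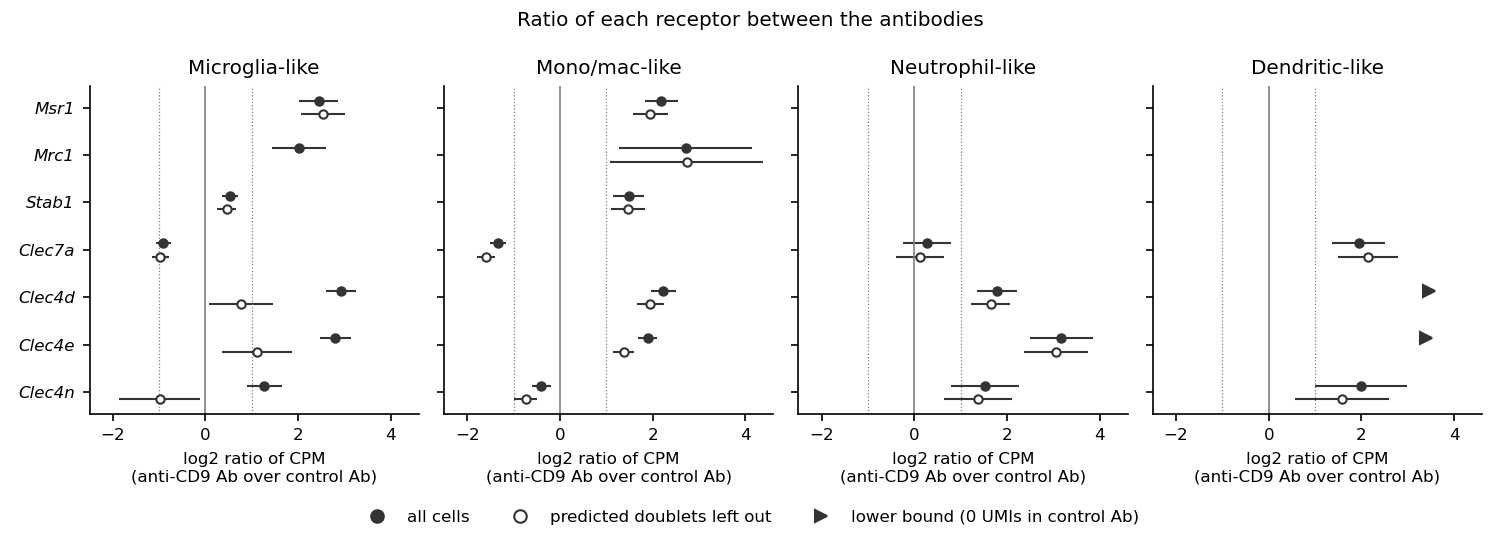
Log2 ratio of CPM (anti-CD9 Ab over control Ab) for 7 receptors in 4 cell types, with 95% counting intervals; filled points use all cells, open points leave out predicted doublets, triangles are lower bounds where control Ab had 0 UMIs, and dotted lines mark 2-fold. In microglia-like cells Clec4d drops from 2.93 to 0.76 and Clec4n turns from 1.27 to -0.99 without predicted doublets, while Msr1 (2.44 and 2.54), Stab1 (0.53 and 0.45) and Clec7a (-0.91 and -0.98) change little.

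Clec7a was lower with anti-CD9 Ab in microglia and macrophages, the types in which Msr1 and Stab1 were higher. In microglia-like cells it measured 229 CPM with control Ab (2393 UMIs) and 122 with anti-CD9 Ab (359 UMIs), a log2 ratio of -0.91 (-1.07 to -0.75), just under 2-fold. In monocyte/macrophage-like cells it measured 298 (418 UMIs) and 118 (807 UMIs), a log2 ratio of -1.33 (-1.51 to -1.16), in cells whose summed microglia markers were lower too. The ratio was below 0 in both microglial clusters and in M0 to M3. It was -0.83 in the resting cluster, -0.55 in the Lpl-led cluster, -2.63 in M0, -1.93 in M1, -0.97 in M2 and -0.66 in M3, and none of these 6 intervals included 0. The level was higher in the Lpl-led cluster (302 and 206 CPM) than in the resting one (118 and 66.5) in both libraries. The thinned share of Clec7a-positive cells was 16.0% and 10.6% in microglia-like cells (intervals 14.4 to 17.8 and 8.58 to 13.01) and 22.4% and 10.8% in monocyte/macrophage-like cells (17.03 to 28.6 and 9.17 to 12.7), beside 1.18% and 0.88% in T cell-like cells. Unthinned, these were 44.0% and 25.5%, 68.1% and 32.3%, and 1.93% and 1.53%.

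In the other 2 myeloid types Clec7a was not lower. Neutrophil-like cells had the highest level in both libraries, at 428 CPM (31 UMIs) and 519 (1725 UMIs), and their log2 ratio of 0.28 had an interval from -0.23 to 0.79 that includes no difference. With control Ab, the interval of this level overlapped that of monocyte/macrophage-like cells. Dendritic cell-like cells measured 43.4 (27 UMIs) and 166 (243 UMIs), a log2 ratio of 1.94 (1.36 to 2.51). With control Ab, oligodendrocyte-like cells measured 78.6 (44 UMIs) and B cell-like cells 47.9 (5 UMIs). The dendritic level thus did not stand above every type outside the myeloid ones. With anti-CD9 Ab the oligodendrocyte-like level was 91.6 (10 UMIs), and its interval overlapped the dendritic one. The part of such background in the dendritic ratio was not tested. The make-up of the dendritic cell-like cells differed: the cluster with Xcr1, Flt3 and Wdfy4, genes of conventional dendritic cells, held 96 and 187 cells, and the cluster with Ccr7 and Fscn1, genes of migratory dendritic cells, 18 and 164. The Clec7a log2 ratio was 1.13 (0.50 to 1.75) in the former, and 4.21 with a wide interval (1.38 to 7.05) in the latter, where 1 control Ab UMI stood against 146. The order of the types differed between the libraries. With control Ab, monocyte/macrophage-like cells were above microglia-like cells and these above dendritic cell-like cells. With anti-CD9 Ab, dendritic cell-like cells were above both, and the intervals of microglia-like and monocyte/macrophage-like cells overlapped.

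**Figure D3:**
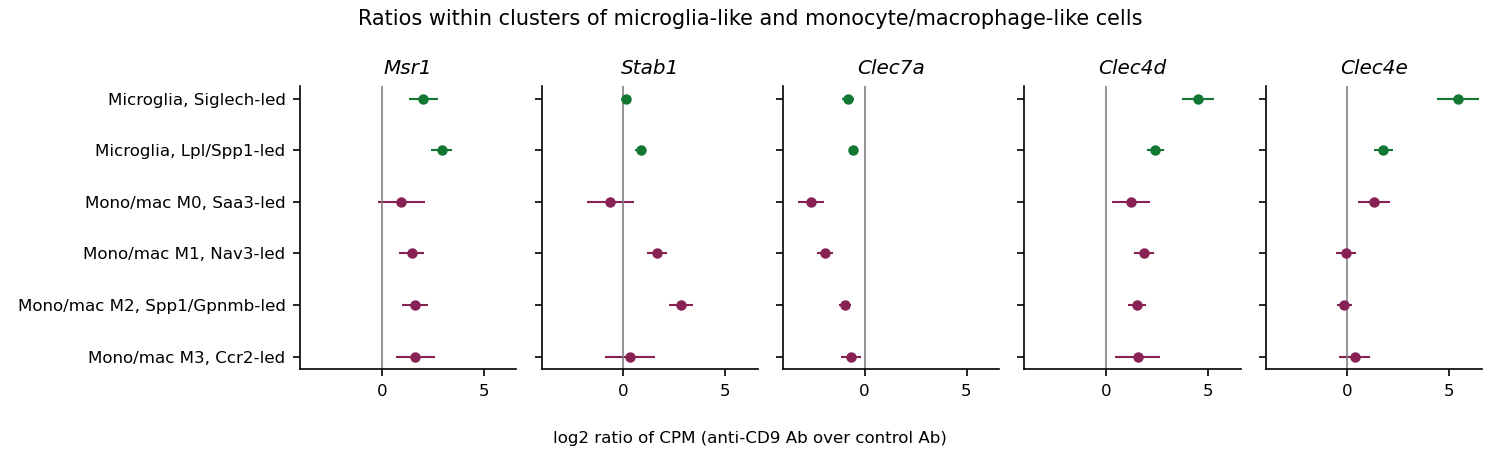
Log2 ratio of CPM (anti-CD9 Ab over control Ab) for 5 receptors within 2 clusters of microglia-like cells (green) and 4 subclusters of monocyte/macrophage-like cells (purple), with 95% counting intervals. The clusters and subclusters were made after integration of the libraries. Msr1 points lie above 0 and Clec7a points below 0 in all 6 groups of cells (the Msr1 interval in M0 includes 0), Stab1 ranges from -0.63 to 2.85, and of the subclusters Clec4e has an interval above 0 in M0 alone.

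Clec4d, Clec4e and Clec4n were highest in neutrophil-like cells. With anti-CD9 Ab they measured 2094 (6961 UMIs), 2115 (7030 UMIs) and 598 CPM (1989 UMIs) there, and with control Ab 607 (44 UMIs), 235 (17 UMIs) and 207 (15 UMIs). With control Ab the Clec4e and Clec4n intervals overlapped those of monocyte/macrophage-like cells, and that of Clec4d did not. The log2 ratios were 1.79 (1.36 to 2.21) for Clec4d, 3.17 (2.49 to 3.86) for Clec4e and 1.53 (0.80 to 2.26) for Clec4n. The control Ab values come from 64 cells with 72432 UMIs in all, and only 21 of those cells reached 1000 UMIs. Of these 21, 4 had a Clec4d UMI after thinning (19.05%, interval 5.45 to 41.9), 1 a Clec4e UMI (4.76%, 0.12 to 23.8) and 3 a Clec4n UMI (14.3%, 3.05 to 36.3). With anti-CD9 Ab the thinned shares over 1827 cells were 79.3% (77.3 to 81.1), 68.3% (66.1 to 70.4) and 32.7% (30.5 to 34.9). Without thinning they were 32.8%, 12.5% and 15.6% of 64 cells and 77.9%, 66.8% and 35.3% of 2697. The median depth of the neutrophil-like cells was 834 and 1166 UMIs.

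Neutrophils too differed in make-up. A Retnlg- and S100a8-led cluster, with granule and calprotectin genes, held 51 of the 64 control Ab cells and 1274 with anti-CD9 Ab, and a Cxcl2- and Ccl4-led cluster, with chemokine genes, held 13 and 1423. Clec4d measured 639 and 1702 CPM in the Retnlg-led cluster (log2 ratio 1.41, 0.95 to 1.88) and 464 and 2385 in the Cxcl2-led one (2.36, 1.21 to 3.52). Clec4e measured 185 and 1073 (2.54, 1.68 to 3.39) and 464 and 2886 (2.64, 1.48 to 3.79). Clec4n gave 1.25 (0.46 to 2.04) in the Retnlg-led cluster, and 2.09 (0.09 to 4.09) from 2 control UMIs in the other. With anti-CD9 Ab the levels of Clec4d, Clec4e and Clec4n were higher in the Cxcl2-led cluster, while Clec7a was higher in the Retnlg-led one (608 against 453). The summed neutrophil markers were themselves lower with anti-CD9 Ab, at 122832 and 42481 CPM. An unnamed cluster led by Gdf15 and Hilpda, with 4 control Ab cells and 802 with anti-CD9 Ab, had 2 of 14 neutrophil markers up. There Clec4d measured 2709 and 2483 CPM (12 and 2052 UMIs), a log2 ratio of -0.13 (-0.94 to 0.69) that includes no difference, and Clec4e had 0 and 1544 UMIs.

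In single neutrophil-like cells, after thinning, both a Clec4d and a Clec4e UMI were found in 57.0% of the anti-CD9 Ab cells, 65.1% in the Cxcl2-led and 44.3% in the Retnlg-led cluster. With 79.3% and 68.3% of the cells positive for each gene, a large overlap follows from the shares alone, and no link between the genes is read from it. At least 2 of the 9 receptors were found in 77.0% of these cells. Of the 21 control Ab cells none held both Clec4d and Clec4e, and 19.05% held at least 2 receptors. Both Clec4d and Clec4e were found in 2.34% (control Ab) and 12.7% (anti-CD9 Ab) of monocyte/macrophage-like cells, of which 13.1% and 34.0% held at least 2 receptors. In microglia-like cells 2.02% and 3.93% held at least 2.

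**Figure D4:**
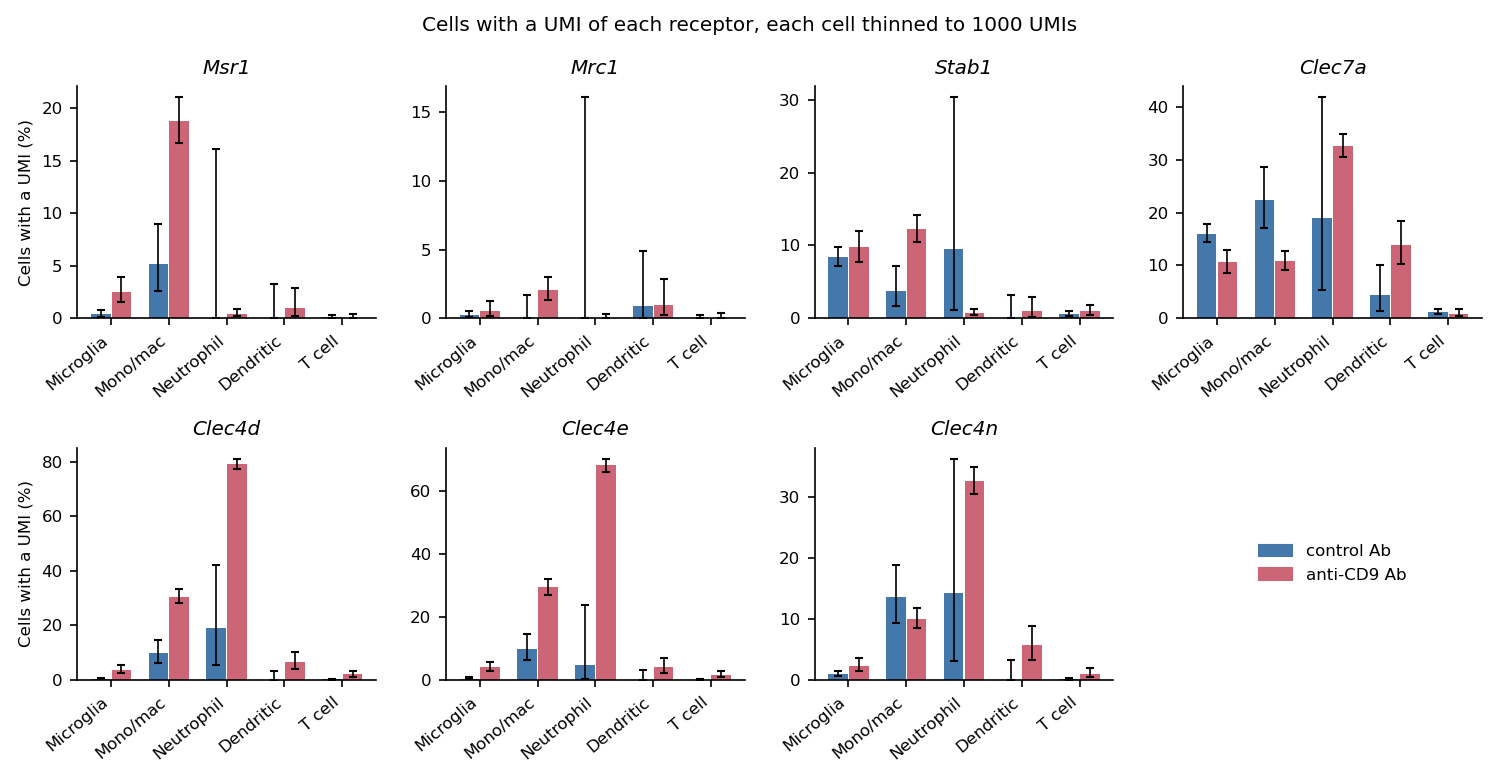
Share of cells with at least 1 UMI of each receptor (%), after each cell was thinned to 1000 UMIs, in 5 cell types; blue bars are control Ab, red bars anti-CD9 Ab, and error bars exact binomial 95% intervals. Clec4d is found in 79.3% and Clec4e in 68.3% of anti-CD9 Ab neutrophil-like cells, T cell-like cells stay at or below 1.98% for each receptor, and the control Ab neutrophil-like bars rest on 21 cells.

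Monocyte/macrophage-like cells were next below neutrophils for all 3 genes. Clec4d measured 84.8 CPM (119 UMIs) and 398 (2718 UMIs), a log2 ratio of 2.23 (1.96 to 2.49). Within subclusters it was 1.23 (0.28 to 2.17) in M0, 1.87 in M1, 1.50 in M2 and 1.55 (0.46 to 2.65) in M3. The M0 and M3 values rest on 9 and 7 control Ab UMIs. With anti-CD9 Ab, M0 to M3 measured 547, 298, 237 and 165 CPM. B cell-like, oligodendrocyte-like and astrocyte-like cells had 280, 275 and 135 in that library, against 38.3, 10.7 and 0 with control Ab. NK (56.8), T and plasma cell-like cells were lower. The M1, M2 and M3 levels thus did not stand clearly above every type outside the myeloid ones. The part of such background in their ratios was not tested. Clec4e measured 135 (189 UMIs) and 499 (3412 UMIs), a log2 ratio of 1.89 (1.68 to 2.10), yet within subclusters it was -0.07 (-0.56 to 0.42) in M1, -0.16 (-0.53 to 0.22) in M2 and 0.35 (-0.40 to 1.10) in M3. Clec4e was higher within M0 (1.28, 0.50 to 2.07). M0 held 2014 and M4 881 of the 3412 Clec4e UMIs with anti-CD9 Ab, and these are the subclusters with 8 and 1 control Ab cells. Clec4n was slightly lower, at 166 (233 UMIs) and 126 (859 UMIs), a log2 ratio of -0.40 (-0.61 to -0.19), and of M0 to M3 the ratio was lowest in M3, at 425 and 162 CPM (-1.39, -1.85 to -0.93). Thinned shares were 9.81% and 30.5% for Clec4d, 9.81% and 29.6% for Clec4e and 13.6% and 10.0% for Clec4n. The unthinned shares were 32.4% and 67.8%, 31.5% and 52.6%, and 38.4% and 28.8%. With predicted doublets left out (17.6% and 23.6% of these cells), the log2 ratios were 1.95 for Clec4d, 1.38 for Clec4e and -0.74 for Clec4n, and Msr1, Mrc1, Stab1 and Clec7a gave 1.95, 2.73, 1.47 and -1.59.

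In microglia-like cells the same 3 lectins were below their macrophage levels and, with anti-CD9 Ab, lay mostly in predicted doublets. Clec4d measured 10.3 and 78.4 CPM, Clec4e 9.94 and 69.3 and Clec4n 13.1 and 31.6, with log2 ratios of 2.93, 2.80 and 1.27. With anti-CD9 Ab, 90 of 804 microglia-like cells (11.2%) were predicted doublets, and they held 206 of 231 Clec4d UMIs (89.2%), 181 of 204 Clec4e UMIs (88.7%) and 81 of 93 Clec4n UMIs (87.1%), but 23 of 119 Msr1 UMIs (19.3%). With control Ab, 122 of 1875 cells (6.51%) were predicted doublets, with 53.7% of the Clec4d, 65.4% of the Clec4e and 40.9% of the Clec4n UMIs. Without them Clec4d measured 5.95 and 10.1 CPM (50 and 25 UMIs, log2 ratio 0.76), Clec4e 4.28 and 9.30 (36 and 23 UMIs, 1.12) and Clec4n 9.64 and 4.85 (81 and 12 UMIs, -0.99). T cell-like cells without predicted doublets had 12.3 CPM of Clec4d and 8.18 of Clec4e with anti-CD9 Ab, so the microglial levels of both genes were close to those of a type that should lack them. With control Ab the T cell-like levels were 0.69 and 0.23, below the microglial ones. No microglial difference in Clec4d or Clec4e is read from these values, since with anti-CD9 Ab the genes did not stand above that background level. Thinned shares of Clec4d-, Clec4e- and Clec4n-positive microglia-like cells with anti-CD9 Ab were 3.68%, 4.06% and 2.28%, beside 1.98%, 1.65% and 0.992% of T cell-like cells. The unthinned values were 9.95%, 8.46% and 5.85%, beside 4.89%, 3.87% and 1.53%, at median depths of 3440.5 UMIs in microglia-like and 2282.5 in T cell-like cells.

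For Msr1, Stab1 and Clec7a the microglial result did not change in this way. With predicted doublets left out, Msr1 measured 6.66 and 38.8 CPM (log2 ratio 2.54), Stab1 82.4 and 113 (0.45) and Clec7a 222 and 113 (-0.98). The T cell-like levels, also without predicted doublets, were 0.46 and 0.82 for Msr1, 7.12 and 9.82 for Stab1 and 11.3 and 3.27 for Clec7a. The T cell-like Clec7a level was thus lower with anti-CD9 Ab too (49 and 8 UMIs, log2 ratio -1.78, -2.86 to -0.70). With predicted doublets kept, the T cell-like levels were 0.62 and 1.83 for Msr1, 7.44 and 11.0 for Stab1 and 12.4 and 8.06 for Clec7a. With these subtracted, the microglial Clec7a ratio was -0.93.

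Dendritic cell-like cells held no Clec4d and no Clec4e UMI with control Ab, and 77 and 74 with anti-CD9 Ab (52.6 and 50.6 CPM). Against a limit of 3 UMIs these were at least 10.9-fold and at least 10.5-fold higher. Of these UMIs 60 of 77 and 55 of 74 lay in predicted doublets, and the remaining counts fell under the minimum for a comparison. Without predicted doublets Clec4d measured 14.5 CPM (17 UMIs) and Clec4e 16.2 (19 UMIs) with anti-CD9 Ab. T cell-like cells without predicted doublets had 12.3 and 8.18 CPM in that library, so no dendritic difference in Clec4d or Clec4e is read. Clec4n measured 14.5 and 57.4 CPM (9 and 84 UMIs, log2 ratio 1.99), and 16.5 and 49.6 (1.59) without predicted doublets. With anti-CD9 Ab it was at 72.4 CPM in B cell-like (15 UMIs) and 101 in oligodendrocyte-like cells (11 UMIs). Astrocyte-like, NK, plasma and T cell-like cells had 22.4, 18.1, 9.54 and 8.06. The dendritic Clec4n level thus did not stand above every type outside the myeloid ones. Clec7a measured 38.5 and 169 (2.13) without predicted doublets. Thinned shares with anti-CD9 Ab were 6.64% for Clec4d, 3.99% for Clec4e, 5.65% for Clec4n and 14.0% for Clec7a. With control Ab the first 3 were at 0 of 112 cells, where a limit of 3 cells is 2.68% of cells with a UMI at this depth, and Clec7a at 4.46%. Unthinned, Clec4d, Clec4e, Clec4n and Clec7a were found in 0%, 0%, 3.51% and 14.0% of cells with control Ab and in 11.4%, 8.55%, 11.7% and 27.6% with anti-CD9 Ab. The part of neutrophil RNA in the Clec4d, Clec4e and Clec4n values outside neutrophils was not tested beyond these counts.

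Across 37 profiles, each a cluster in 1 library with at least 50 cells, the 3 lectins followed each other: Pearson r of log2(CPM + 20) was 0.96 for Clec4d and Clec4e, 0.94 for Clec4d and Clec4n and 0.92 for Clec4e and Clec4n. Msr1 and Stab1 gave 0.69. The genes with the most similar profile were Arg2 and Tnfaip2 beside Clec4e for Clec4d (0.97 and 0.96), Thbs1 and Il1rn beside Clec4d for Clec4e (both 0.95), and Msrb1 and Wfdc17 for Clec4n (0.97 and 0.94). They were Ms4a6d, Tfec and Cfb for Msr1 (0.87, 0.83 and 0.82), Slc16a10, Ntpcr and Apobec1 for Stab1 (0.90, 0.89 and 0.88), and Tyrobp, Marcks and Tpd52 for Clec7a (each 0.89). Profiles of 1 library share its preparation and depth, so these values describe the libraries.

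Related genes were described by 3 lists, of other scavenger receptors, other C-type lectins and signalling genes. Over all genes compared, 8.04% were 2-fold higher and 6.31% lower in monocyte/macrophage-like cells, and 3.31% and 4.4% in microglia-like cells. In neutrophil-like cells these shares were 13.6% and 19.8%, and in dendritic cell-like cells 7.36% and 3.72%. Of 18 other scavenger receptors, 10 were compared in monocyte/macrophage-like cells, with 3 at least 2-fold higher and 3 lower and a median log2 ratio of -0.31. Of 26 other C-type lectins 9 were compared there, with 6 higher, 1 lower and a median of 1.79. Of 10 signalling genes downstream of the lectins all were compared, with 3 higher (Syk 1.15, Malt1 1.32 and Src 1.61), 0 lower and a median of 0.47. Examples were Clec4a1, at 53.5 and 305 CPM (log2 ratio 2.51), Cd14, a co-receptor for bacterial lipopolysaccharide, at 125 and 667 (2.42), Ly75, an endocytic receptor of dendritic cells, at 2.82 (1.16 to 4.47) from 3 control UMIs, Cd93 at -1.04, and Cd68, a lysosomal glycoprotein of macrophages, at 939 and 324 (-1.54). In microglia-like cells 1 of 10 scavenger receptors was higher and 0 lower (median 0.22), 2 of 10 lectins higher and 1 lower (-0.15) and 0 of 10 signalling genes in either direction (0.28). Named among them were Clec2d at 2.08, Cd36, a receptor for oxidised lipids, at 1.78, Clec4a1 at 1.77 and Mrc2 at -2.12. In neutrophil-like cells the counts were 2 higher and 1 lower of 6 scavenger receptors (median 0.19), 3 and 2 of 9 lectins (0.18) and 1 and 1 of 8 signalling genes (0.40). Cd14 gave 4.61 there from 9 control UMIs, Clec2d 2.65 (1.01 to 4.28) from 3 and Cd302 2.43 (-0.40 to 5.26) from 1, while Clec4a2 gave -1.63 and Plcg2 -1.40. In dendritic cell-like cells they were 2 and 1 of 6 (0.52), 4 and 2 of 10 (0.20) and 2 and 0 of 8 (0.47), with Cd14 at 2.71, Timd4 at 1.52, Malt1 at 1.43, Cd36 at -1.44, Clec12a at -1.25 and Clec9a at -1.21.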

How the data were processed

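Single-cell RNA-seq (10x 3′ v3.1) was made from 2 libraries of CD45+ thalamic cells, 1 per antibody. The methods state that thalami were pooled from 4 mice for a library of this tissue, and do not repeat this for the antibody groups. The deposited values are raw UMI counts per gene and barcode, made by the authors with Cell Ranger (8.0.0 per the file headers). The processing notes name GRCm39 and the methods GRCm38. No coordinates were taken from the files. Sequences are from RefSeq (GRCm38.p6) and were matched by symbol.

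Of rows that shared a symbol, only the first was kept, while UMIs and genes per barcode for the quality limits were counted over all rows. Cells with 200 to 7500 genes and up to 2% mitochondrial UMIs were kept. They were integrated and clustered with Seurat 5.3.0 in R 4.3.3 (2000 variable genes, 30 components, resolution 0.8), with the 9 receptors and the 54 related genes kept out of the variable genes. Clusters were named from marker lists where at least 3 markers were up. A cluster with over 50% predicted doublets was not named. Predicted doublets (10.5% and 12.5% of kept cells) were the cells with the largest share of simulated doublets among their neighbours. How many were called was set in advance from the number of barcodes in each library. These percentages are therefore no estimate of the doublet rate. They were kept, and left out in an alternative.

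UMIs were summed per cell type and library, and scaled to CPM, with Python 3.11.15, NumPy 2.4.6 and SciPy 1.17.1. Levels have exact Poisson and shares exact binomial 95% intervals (Clopper-Pearson), which cover counting error only. Log2 ratios have a counting interval. A 0 was set to 3 UMIs to give a bound. With 1 library per antibody no test was made and no p-value is given. A gene was compared from 50 UMIs upward, both libraries added. The ratio script was tested on simulated counts. Named were the 9 receptors, the 3 highest and 3 lowest related genes past 2-fold with at least 100 UMIs in each main cell type, the 3 genes with the most similar profile (genes with at least 200 UMIs), Cd9, and markers that define cells. The receptors and all lists were chosen with earlier results of these data known. Depth per library is given with the cell numbers.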

Additional observations from a re-analysis of the deposited data

Results flagged for a closer look

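Clec7a had opposite ratios in 2 cell types of the same pair of libraries: the log2 ratio of CPM (anti-CD9 Ab over control Ab) was 1.94 in dendritic cell-like cells and -1.33 in monocyte/macrophage-like cells. Across the alternatives the dendritic value ranged from 0.83, under 2-fold, with cells typed one by one to 2.35. With control Ab the dendritic Clec7a level (43.4 CPM) was below that of oligodendrocyte-like cells (78.6). Cd36, a scavenger receptor outside the 9 genes, was at 1.78 in microglia-like cells, at -1.47 in monocyte/macrophage-like cells (25 and 44 UMIs) and at -1.44 in dendritic cell-like cells. Clec4a2, a lectin of the same gene family as Clec4d, was at 1.97 in monocyte/macrophage-like cells and at -1.63 in neutrophil-like cells, the latter from 18 and 267 UMIs. With 1 library per antibody none of these differences between cell types was tested.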

How the results depend on the processing

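With 1 library per antibody, the depth of the control Ab neutrophil-like cells and the make-up of each cell type limit every ratio. Over 249 log2 ratios of the receptors recomputed under alternatives, 200 stayed within the counting interval of the value reported, 48 moved out of it, and of the ratios past 2-fold 1 reversed: Clec4n in microglia-like cells, at -0.99 with predicted doublets left out. Among the 200 were 22 with no minimum of UMIs, which cannot change the ratio of a receptor already compared. Another 22 came from centring on the median of all genes, a small shift. These were settled in advance or nearly so, and show no stability. The count of receptors past 2-fold in microglia-like cells went from 5 to 2 (Msr1 and Clec4e) with predicted doublets left out. In dendritic cell-like cells it went from 4 to 2 with predicted doublets left out, with equal weight for each cell, with the T cell-like level subtracted and with cells typed one by one. It was also 2 under alternatives chosen after seeing the data, with cells holding S100a8 or S100a9 UMIs left out and in only the cluster with most control Ab cells. In each of these the gene pair was Clec7a and Clec4n, except with cells typed one by one, where it was Clec4d and Clec4n. With equal weight and with the subtraction, a gene with 0 control Ab UMIs gets no ratio. Clec4d and Clec4e were therefore certain to drop out there, whatever their level. Without predicted doublets, without S100a8 or S100a9 cells and in the 1 cluster, both fell under the minimum of 50 UMIs and were not compared. These falls show no ratio under 2-fold for either gene. With cells typed one by one, Clec4e was compared and its log2 ratio was 0.65, under 2-fold. The counts in monocyte/macrophage-like and neutrophil-like cells stayed within 1.5 times, but with a mitochondrial limit of 5% Clec4n lost its call in neutrophil-like cells (0.84), Stab1 was 2-fold lower there, and Marco was 2-fold lower in monocyte/macrophage-like cells. Stab1 was also 2-fold lower in neutrophil-like cells with cells typed one by one and with no minimum of UMIs. Leaving out the cell with most UMIs of each receptor, also chosen after seeing the data, took Mrc1 from the microglial count. Across the alternatives the log2 ratio of Msr1 ranged from 2.28 to 2.64 in microglia-like and from 1.76 to 2.39 in monocyte/macrophage-like cells, that of Clec7a from -1.04 to -0.74 and from -1.63 to -1.13, that of Clec4e in neutrophil-like cells from 2.54 to 3.53, and that of Mrc1 in monocyte/macrophage-like cells from 1.16 to 4.06. Centring on the median of all genes, which was -0.12 in neutrophil-like cells, changed no value by more than its interval. Clec7a in neutrophil-like cells, within 2-fold, ranged from -0.56 to 0.59. No paired analysis was possible because each group is 1 library.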

Other observations

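An unnamed cluster led by Ttr and Mcpt2 (29 control Ab cells and 1185 with anti-CD9 Ab) and the unnamed Gdf15- and Hilpda-led cluster (4 and 802 cells) held receptor UMIs that enter no cell type above. In the first, Clec4d measured 13.5 and 313 CPM (1 and 397 UMIs, log2 ratio 4.53, 1.70 to 7.36), Clec7a 243 and 108 (18 and 137 UMIs, -1.17), and Msr1 had 0 and 111 UMIs. In the second, Clec7a measured 1355 and 182 CPM (6 and 150 UMIs, -2.90, -4.08 to -1.72) and Clec4n 1355 and 861 (6 and 711 UMIs, -0.65, -1.81 to 0.50).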
